A study of Homo sapiens with 8 samples.

Results

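The feedback regulators of FGF/ERK signalling described here are 10 genes, chosen by name in both deposited tables: the Sprouty genes SPRY1, SPRY2 and SPRY4, the phosphatase genes DUSP4, DUSP5 and DUSP6, the ETS transcription factor genes ETV4 and ETV5, and the ligand genes FGF2 and FGF17. They are 10 of the 11644 genes in the day 2 table and 10 of the 14070 in the day 0 table, and 10 of 10 passed the day 2 filter on low counts. RNA-seq was done on H1, an established human embryonic stem cell line, either wild type or carrying a knockout of SETD7, a lysine methyltransferase gene. Undifferentiated cells (day 0) gave 1 library per genotype, deposited as FPKM (fragments scaled by transcript length and library size), and cells on day 2 of differentiation towards blood lineages gave 3 libraries per genotype, deposited as read counts. How many knockout clones there were, and whether replicates came from separate cultures, is not stated in the labels, so the p-values reflect the scatter of these libraries, which could be technical. Cells were maintained in mTESR medium, and the factors used for differentiation are not named in the labels.

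FGF ligands bind FGF receptors with heparan sulfate as co-receptor, and the receptors act through RAS, RAF and MEK on the kinase ERK. ERK activity induces its own brakes: Sprouty proteins act on receptor-to-RAS signalling, and dual-specificity phosphatases remove the activating phosphates from ERK. The transcripts of these brakes and of ETV4 and ETV5 are widely used as a readout of the pathway. In human embryonic stem cells FGF2 supports self-renewal, and FGF8 and FGF17 are ligands of the primitive streak.

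On day 2 the 10 genes split. In the knockout DUSP4, SPRY1 and DUSP6 rose, FGF17, ETV5 and DUSP5 fell, and SPRY2, SPRY4, ETV4 and FGF2 did not pass the test, which was edgeR's quasi-likelihood test with Benjamini-Hochberg adjustment over 11475 genes and a threshold of 0.05. The largest rise was 1.33-fold (DUSP4) and the largest fall was to 0.776 of the wild-type level (FGF17). Over all tested genes 23.3% passed, 12.3% higher and 11.0% lower, against 6 of the 10. The 10 genes were chosen with earlier results of these data known, and genes of similar level were not compared. Shares on either day are thus set side by side without a test of an excess. The count of 6 was 4 without wild-type replicate 2 and 3 without wild-type replicate 3, with 1 lower in each. In a test against a 1.2-fold change (edgeR's glmTreat) 0 of the 10 passed after adjustment, and DUSP4 and FGF17 were at an unadjusted p under 0.05; DESeq2 and limma-voom, tested against no change, gave 3 higher and 3 lower. The median log2 fold change of the 10 was −0.01, and that of all tested genes was −0.0026.

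On day 0, with 1 library per genotype and so no test, SPRY2, SPRY4, DUSP5, DUSP6 and ETV4 were each higher in the knockout library by more than 1.5-fold on the FPKM + 1 scale, and FGF2 was lower by just over 1.5-fold (log2 ratio −0.59). The FGF2 ratio was inside that line with a pseudocount of 5 FPKM (−0.55) and with ratios centred on their median (−0.56). FGF17 was below 1 FPKM in both libraries and was left out of the ratios. Thus 5 of 9 genes were past 1.5-fold upwards and 1 downwards, where 4.81% of all 13282 genes kept were past it upwards and 8.77% downwards (13.6% in all). The median log2 ratio was 0.85 for the 9 genes and −0.03 for all genes kept.

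**Figure D1:**
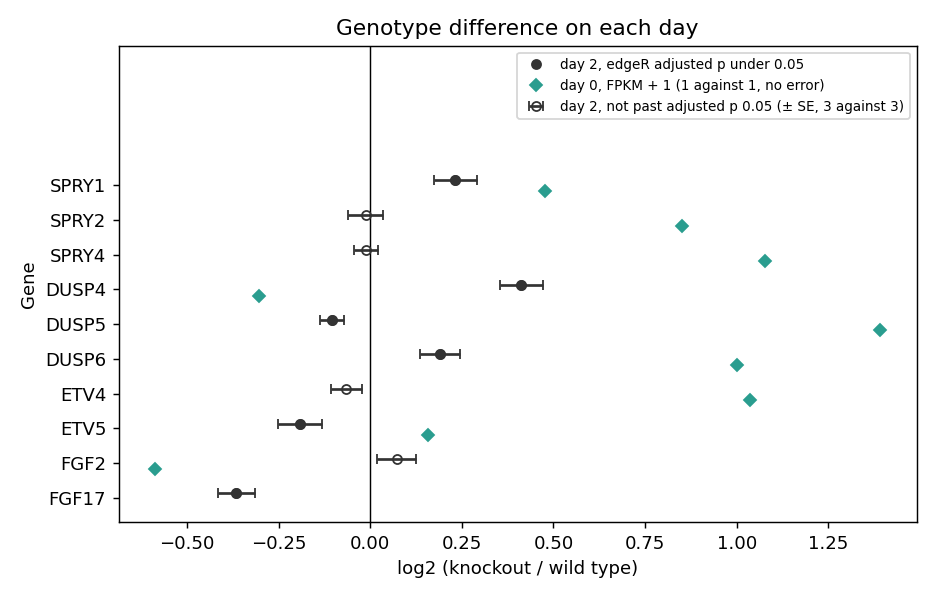
Log2 ratio of knockout to wild type for the 10 genes (rows). Circles are the day 2 edgeR log2 fold changes with their SE (3 against 3 libraries, filled where the adjusted p was under 0.05), and diamonds are the day 0 log2 ratios of FPKM + 1 (1 against 1 library, no error). Day 0 ratios run from −0.59 (FGF2) to 1.39 (DUSP5), and day 2 fold changes from −0.37 (FGF17) to 0.41 (DUSP4).

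The knockout was checked first on SETD7 itself. Its day 0 level was 3.53 FPKM in wild type against 1.48 FPKM in the knockout, and on day 2 it was 55.5 ± 0.710 TMM-scaled CPM (counts normalised to library size; SD, n = 3) against 31.8 ± 2.56, so the transcript was lower but still present on both days. The day 2 libraries held between 27880068 and 39553614 counts, while depth on day 0 is unknown. Of 6 pluripotency markers on day 0, POU5F1 (149 and 113 FPKM in wild type and knockout) and LIN28A (473 and 445 FPKM) were lower in the knockout library. The other 4 were higher, at 13.7 and 22.3 FPKM for NANOG, 318 and 527 for DNMT3B, 249 and 261 for TDGF1 and 69.8 and 92.7 for ZFP42. Their sum was 1272 FPKM against 1461 FPKM on day 0, and 2554 to 2571 CPM against 2690 to 2711 CPM on day 2, when DNMT3B and TDGF1 rose, NANOG fell and the other 3 did not pass. By contrast MIXL1, a mesendoderm factor, was at 0.598 and 1.05 FPKM on day 0 and at 1467 ± 19.3 and 1568 ± 29.6 CPM on day 2 (n = 3). Of the other mesoderm markers, KDR was already at 55.8 FPKM in wild type and 69.8 FPKM in the knockout on day 0. T, EOMES, MESP1 and HAND1 were below 1 FPKM in both day 0 libraries. The summed CPM of 6 mesoderm markers on day 2 was 3791 to 3839 in wild type and 3864 to 3919 in the knockout, but they went both ways. MIXL1 (log2 fold change 0.10, edgeR adjusted p 0.0139) and KDR (0.12, 0.00352) rose, T (−0.26, 0.000724) and HAND1 (−0.17, 7.91e-05) fell, and EOMES and MESP1 did not pass. SOX17, the endoderm marker measured of 3 listed, fell from 151 ± 3.30 to 102 ± 3.30 CPM (n = 3, log2 fold change −0.56, edgeR adjusted p 2.52e-13). Of 5 fibroblast markers 3 were measured, with sums of 294 to 306 CPM in wild type and 412 to 426 in the knockout, most of it COL1A2, while LUM was at 6.03 and 4.08 CPM. Of 4 blood markers 1 was measured, RUNX1, at 28.0 ± 2.28 CPM in wild type and 25.5 ± 0.219 CPM in the knockout. It did not pass (edgeR adjusted p 0.153). The part of these markers in the results below was not tested, and in bulk RNA fewer cells of a type and less RNA per cell cannot be told apart.

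The Sprouty genes encode inhibitors that ERK signalling induces. SPRY1 (chromosome 4, 123396795 to 123403760, plus strand, GRCh38, protein coding) was the member of this family that rose on day 2. It stood at 42.2, 48.1 and 39.9 CPM in wild-type replicates 1, 2 and 3 and at 50.3, 50.01 and 52.9 CPM in the knockout. The genotypes did not overlap, although wild-type replicate 2 lay close to the lowest knockout library. The rise from 43.4 ± 4.20 to 51.1 ± 1.62 CPM (n = 3) had an edgeR adjusted p of 0.00361 and a log2 size of 0.23 (SE 0.059). Without wild-type replicate 3 the edgeR adjusted p was 0.0559, within a range of 0.000327 to 0.0559 over the settings that leave out 1 library. On day 0 SPRY1 was at 4.80 FPKM in wild type and 7.07 FPKM in the knockout, a log2 ratio of 0.48 on the FPKM + 1 scale, which is under the 1.5-fold line.

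SPRY2 (chromosome 13, 80335976 to 80340951, minus strand) stood on day 2 at 61.8, 65.6 and 64.6 CPM in wild type and at 62.4, 61.5 and 66.7 CPM in the knockout. The groups overlapped, and the log2 difference of −0.01 had an approximate 95% interval of −0.11 to 0.08 (edgeR adjusted p 0.887). SPRY4 (chromosome 5, 142310427 to 142326455, minus strand), the most abundant Sprouty gene, was likewise overlapping, at 308, 320.3 and 328 CPM in wild type and 322, 309 and 318 CPM in the knockout. Its log2 difference was −0.01, with an approximate 95% interval of −0.07 to 0.05 (edgeR adjusted p 0.844). With upper-quartile scaling both differences took the other sign (0.0030 for SPRY2 and 0.0043 for SPRY4), so neither has a direction. The day 0 libraries differed by much more: SPRY2 was at 9.62 FPKM in wild type and 18.2 FPKM in the knockout, a ratio of 1.89. SPRY4 was at 19.0 and 41.2 FPKM, a ratio of 2.17. The sizes on both days lie side by side without a test, because the tables hold different units and day 0 has no replicates.

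To set the Sprouty gene that rose on day 2 beside one that did not, the 250 bases before a RefSeq transcript start (GRCh38.p14) are shown for each, at chr4:123396545-123396794 (plus strand) for SPRY1 and chr13:80341127-80341376 (minus strand) for SPRY2, 5′ to 3′, with any motif match in capitals.
SPRY1: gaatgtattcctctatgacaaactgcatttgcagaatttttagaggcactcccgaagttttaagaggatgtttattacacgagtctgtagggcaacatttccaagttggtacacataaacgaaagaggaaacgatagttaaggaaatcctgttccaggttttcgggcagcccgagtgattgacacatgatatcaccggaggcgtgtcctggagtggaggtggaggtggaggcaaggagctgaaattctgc
SPRY2: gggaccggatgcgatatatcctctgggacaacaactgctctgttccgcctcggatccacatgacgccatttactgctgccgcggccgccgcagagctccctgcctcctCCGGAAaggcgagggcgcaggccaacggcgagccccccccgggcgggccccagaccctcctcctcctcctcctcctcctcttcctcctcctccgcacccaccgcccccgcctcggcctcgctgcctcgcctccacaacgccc
Of 4 motifs searched on both strands, the ETS core CCGGAA had 1 match in the SPRY2 window, 142 bases before the start, and none in the SPRY1 window. The motifs TGACGTCA (the cAMP response element), TGANTCA (AP-1) and TGAATGNA (bound by the repressor CIC) had no match in either window. Among 35116 RefSeq promoter windows of the same length, 14.5% held CCGGAA, 1.65% TGACGTCA, 6.57% TGANTCA and 3.25% TGAATGNA. A second SPRY1 start, inside annotated exons, had 1 CCGGAA match 67 bases before it. Neither of the other 2 SPRY2 windows held any of the 4 motifs, nor did the windows of SPRY4, DUSP6 and FGF2. GC content was 45.6% in the SPRY1 window shown and 70.4% in the SPRY2 window. The RefSeq table held windows for 5 of the 10 genes, 8 windows in all. A match is a description of letters and not evidence of binding.

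**Figure D2:**
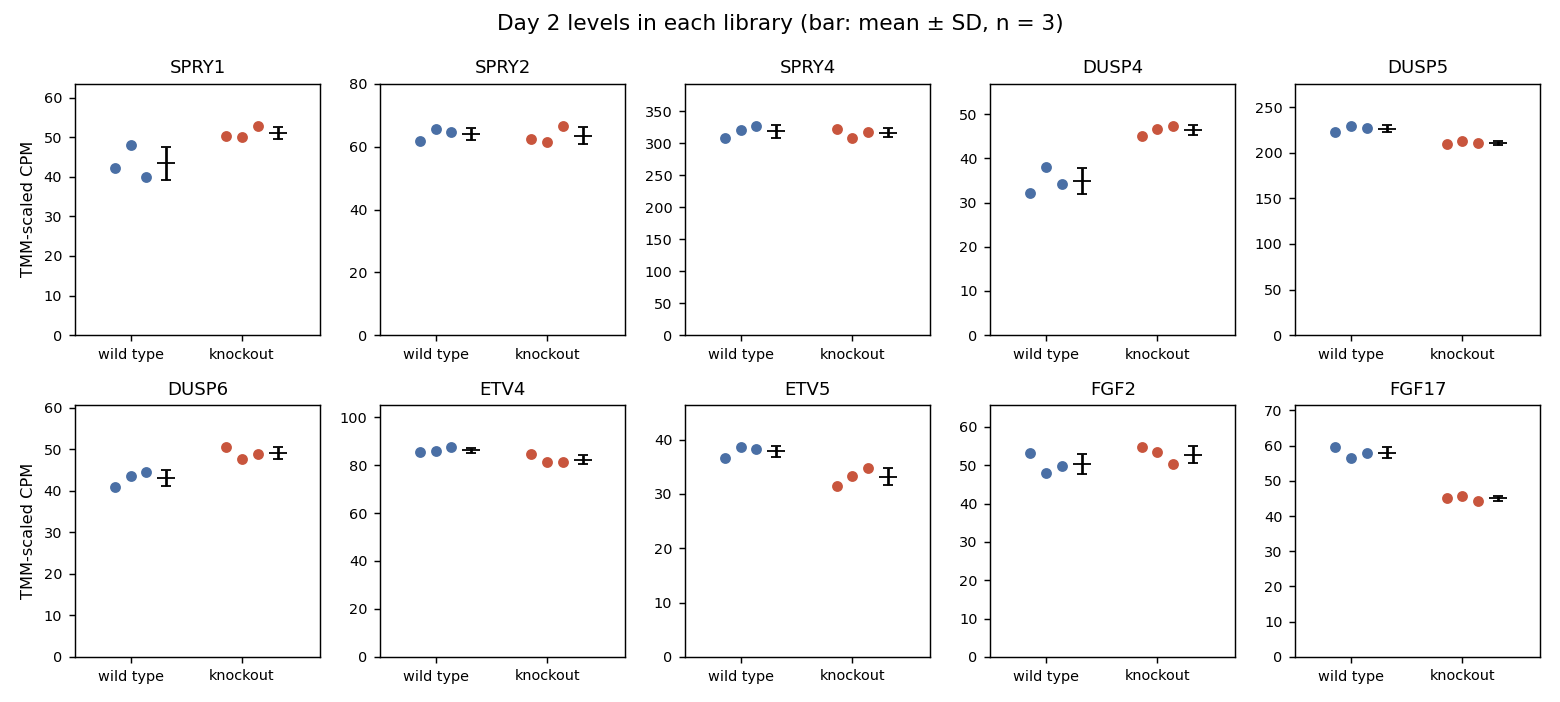
Day 2 TMM-scaled CPM (y axes, from 0) of the 10 genes in each library (points, 3 wild type and 3 knockout), with the mean ± SD beside each group. The genotypes do not overlap for SPRY1, DUSP4, DUSP5, DUSP6, ETV4, ETV5 and FGF17, and overlap for SPRY2, SPRY4 and FGF2. They do not overlap in 37.7% of all tested genes.

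Of the phosphatase genes on day 2, DUSP4 and DUSP6 rose and DUSP5 fell. DUSP4, which encodes a nuclear phosphatase of ERK and related kinases (chromosome 8, 29333064 to 29350668, minus strand), stood at 32.1, 38.0 and 34.3 CPM in wild type and 45.1, 46.7 and 47.4 CPM in the knockout on day 2. Each knockout library lay above each wild-type library. The rise from 34.8 ± 2.96 to 46.4 ± 1.17 CPM (n = 3) measured 0.41 on the log2 scale (SE 0.060, edgeR adjusted p 2.67e-06). Day 0 went the other way at a low level, with 2.13 FPKM in wild type and 1.53 FPKM in the knockout.

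DUSP6, which encodes the cytoplasmic ERK-specific phosphatase (chromosome 12, 89347232 to 89353271, minus strand), stood at 40.8, 43.6 and 44.5 CPM in wild type and 50.4, 47.7 and 48.9 CPM in the knockout on day 2. The groups were apart, and the rise measured 0.19 on the log2 scale (SE 0.054, edgeR adjusted p 0.00892). That call was lost without wild-type replicate 1 (edgeR adjusted p 0.0508, range 0.00916 to 0.0508 over the settings that leave out 1 library). An antisense gene, AC024909.2, covers 40.5% of the DUSP6 exons, and whether reads were counted by strand is not given in the sources used here, so its values are uncertain. On day 0 DUSP6 was at 11.4 FPKM in wild type and 23.8 FPKM in the knockout, a ratio of 2.09 in the same direction as on day 2.

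DUSP5, another nuclear ERK phosphatase (chromosome 10, 110497838 to 110511544, plus strand), had the widest gap between the days. On day 2 it stood at 223, 229.9 and 227 CPM in wild type and 209, 213 and 210.2 CPM in the knockout. The groups did not overlap, and the fall from 227 ± 3.45 to 211 ± 1.87 CPM (n = 3) was small, −0.10 on the log2 scale (SE 0.032, edgeR adjusted p 0.016). It was lost without wild-type replicate 2 (edgeR adjusted p 0.0892), wild-type replicate 3 (0.0632) or knockout replicate 3 (0.0701), within a range of 0.0186 to 0.0892. On day 0, by contrast, DUSP5 was at 4.67 FPKM in wild type and 13.9 FPKM in the knockout, the highest of the 9 ratios on the FPKM + 1 scale (2.97 without the pseudocount).

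ETV4 and ETV5 encode ETS transcription factors of the PEA3 group, which act downstream of FGF receptors. ETV5 (chromosome 3, 186046308 to 186110318, minus strand) stood at 36.6, 38.6 and 38.3 CPM in wild type and 31.5, 33.3 and 34.8 CPM in the knockout on day 2. Each knockout library was lower than each wild-type library, and the log2 fold change was −0.19 (SE 0.059, edgeR adjusted p 0.0165). The call was lost without wild-type replicate 2 (edgeR adjusted p 0.0954), wild-type replicate 3 (0.0599) or knockout replicate 1 (0.120), within a range of 0.029 to 0.120.

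ETV4 (chromosome 17, 43527844 to 43579620, minus strand) stood at 85.4, 85.7 and 87.4 CPM in wild type and 84.5, 81.1 and 81.4 CPM in the knockout. The groups were just apart, as they were in 37.7% of all tested genes, but ETV4 did not pass (log2 difference −0.07, approximate 95% interval −0.15 to 0.02, edgeR adjusted p 0.281). The 2 factors differed on day 0: ETV4 was at 30.7 FPKM in wild type and 64.01 FPKM in the knockout, a ratio of 2.09, and ETV5 was at 13.2 and 14.8 FPKM, a ratio of 1.12. Exons of ETV4 and ETV5 overlap those of another gene over 1.89% and 2.83% of their length.

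Of the ligands, FGF17 (chromosome 8, 22042398 to 22048809, plus strand), a streak ligand of the FGF8 group, stood on day 2 at 59.5, 56.6 and 58.0 CPM in wild type and 45.2, 45.6 and 44.3 CPM in the knockout. The knockout libraries lay well below the wild type, at 45.0 ± 0.677 against 58.0 ± 1.46 CPM (n = 3). This fall, −0.37 on the log2 scale (SE 0.051, edgeR adjusted p 1.25e-06), had the smallest p of the 10 genes. At 0.0742 and 0.155 FPKM FGF17 was barely measured on day 0 in either genotype. The 5 tested genes whose log2 CPM over the 6 day 2 libraries was most correlated with that of FGF17 were NUP153, NCAPH, CITED2, NSDHL and PCAT14 (Pearson's r from 0.996 to 0.999). They share the 6 libraries and the genotype difference with FGF17, so a lower level in the knockout follows from how they were picked. Their log2 fold changes ran from −0.09 (NUP153) to −0.69 (PCAT14).

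FGF2 (chromosome 4, 122826708 to 122898236, plus strand), the ligand that sustains cultured human embryonic stem cells, stood on day 2 at 53.1, 48.0 and 49.8 CPM in wild type and 54.7, 53.4 and 50.2 CPM in the knockout. The groups overlapped and FGF2 did not pass (log2 difference 0.07, approximate 95% interval −0.03 to 0.18, edgeR adjusted p 0.357). On day 0 it was the most abundant of the 10 genes in wild type, at 69.7 FPKM, and was at 46.1 FPKM in the knockout, a ratio of 0.661. The gene NUDT6, on the other strand, overlaps 11.9% of the FGF2 exons, so reads of the pair cannot be told apart where strand was not used.

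**Figure D3:**
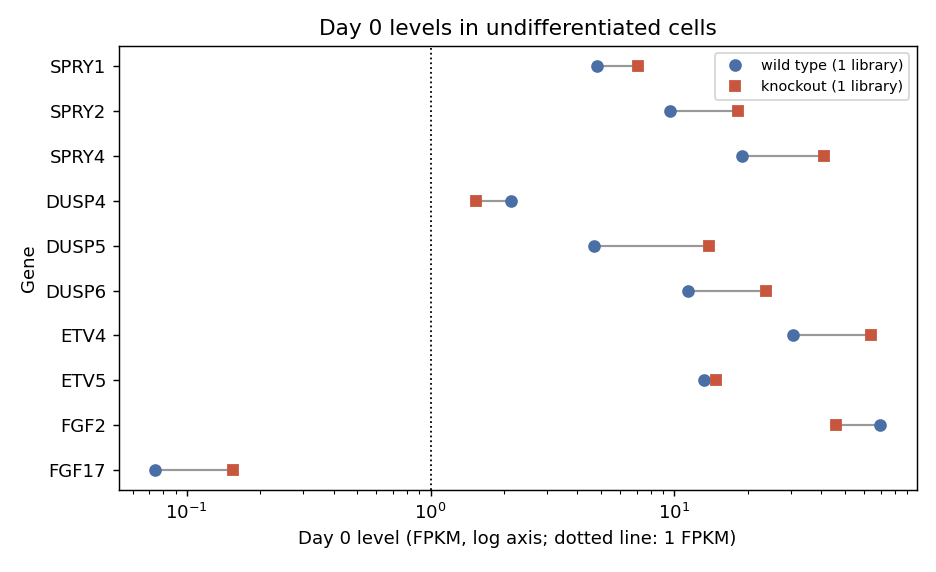
Day 0 FPKM (log axis) of the 10 genes in the wild-type library (circles) and the knockout library (squares), 1 library each, with a dotted line at 1 FPKM. The Sprouty genes, DUSP5, DUSP6 and ETV4 lie to the right in the knockout, FGF2 and DUSP4 lie to the left, and FGF17 is below the line in both.

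Levels were compared between genes per kilobase of annotated exon. On day 2 wild-type DUSP5 was highest, at 86.7 ± 1.32 CPM per kb (SD, n = 3), followed by SPRY4 (48.6 ± 1.498), ETV4 (23.9 ± 0.303), SPRY2 (21.1 ± 0.651) and FGF17 (17.7 ± 0.444). Below them came SPRY1 (11.0 ± 1.06), DUSP6 (9.28 ± 0.410), FGF2 (7.42 ± 0.379), ETV5 (6.52 ± 0.187) and DUSP4 (4.80 ± 0.408 CPM per kb). No neighbours in this order overlapped between their 3 libraries. In the knockout the order was the same except that DUSP4 (6.40 ± 0.162) stood above ETV5 (5.72 ± 0.281 CPM per kb), because DUSP4 rose and ETV5 fell.

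The order was different on day 0, when wild-type FGF2 and ETV4 were highest in FPKM and DUSP5 was among the lower ones. Ranked by level per length among 11299 genes present in both tables, wild-type DUSP5 stood at percentile 23.0 on day 0 and 96.2 on day 2. FGF17 stood at percentile 0.584 and then 77.6, SPRY4 at 70.4 and 92.8, and FGF2 at 93.6 and 53.6. ETV4 held nearly the same rank, at 82.6 and 83.7. These ranks compare tables in different units and with 1 wild-type library on day 0, and were not tested.

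The make-up of each family was measured as shares of its summed level per length. On day 2 these shares did not overlap between the genotypes for the phosphatase genes, SPRY1, ETV4 and ETV5, and overlapped for SPRY2 and SPRY4. The shares were not tested, and the levels of single genes did not overlap in 37.7% of all tested genes. Shares within a family are tied to each other and are not separate results, and those of ETV4 and ETV5 are complements. In wild type on day 2, DUSP5 made 86.0 ± 0.456% of the DUSP4, DUSP5 and DUSP6 sum (SD, n = 3), DUSP6 9.21 ± 0.275% and DUSP4 4.76 ± 0.314%. In the knockout the shares were 82.6 ± 0.301%, 10.8 ± 0.356% and 6.56 ± 0.150%, with no overlap between genotypes for any of the 3. The sum itself was 101 ± 2.04 CPM per kb in wild type and 97.6 ± 0.516 in the knockout. On day 0 DUSP6 held the larger part, 62.6% of the wild-type sum against 60.7% of the knockout sum, and DUSP5 held 25.7% and 35.4%. The share of DUSP4 was 11.7% in wild type and 3.91% in the knockout on day 0, the reverse of its day 2 order. Among the Sprouty genes on day 2 the share of SPRY1 was 13.6 ± 1.15% in wild type and 15.7 ± 0.275% in the knockout, without overlap, while the Sprouty sum overlapped (80.6 ± 2.36 and 82.0 ± 1.96 CPM per kb). On day 0 SPRY1 went the other way here too, with 14.4% of the Sprouty sum in wild type and 10.6% in the knockout. The share of ETV4 in the sum of ETV4 and ETV5 on day 2 was 78.6 ± 0.419% in wild type and 80.0 ± 1.11% in the knockout, just without overlap, and that sum was 30.4 ± 0.429 and 28.5 ± 0.319 CPM per kb, also apart. On day 0 the ETV4 share was 70.0% and 81.2%. On day 0 the summed FPKM of the Sprouty genes was 1.99 times as high in the knockout library, that of the phosphatases 2.16 times and that of ETV4 and ETV5 1.80 times.

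The rest of the pathway was read from lists of its other genes. Each count below stands beside 12.3% of all tested genes called higher and 11.0% called lower on day 2, and beside 4.81% of all kept genes past 1.5-fold upwards and 8.77% downwards on day 0. The lists too were chosen with earlier results of these data known, so these counts are descriptions and not tests of an excess. The 5 other FGF family genes tested on day 2 were FGF8, FGF10, FGF12, FGF13 and FGF19. They were listed by family name and not by action on FGF receptors, so the count below is not one of receptor ligands. Of these 5 genes 1 passed, a share near the 23.3% of all tested genes. It was FGF8, the streak ligand closest in kind to FGF17, which fell from 25.8 ± 0.323 to 21.7 ± 0.340 CPM (n = 3, log2 fold change −0.25, edgeR adjusted p 0.0062). Of 5 FGF receptors 3 rose and none fell, also with DESeq2 and limma-voom (0 lower at an unadjusted p under 0.05 in edgeR), but 0 passed against a 1.2-fold change (glmTreat, 0 also at an unadjusted p under 0.05). The 3 were FGFR4 (72.4 ± 3.35 to 87.4 ± 4.15 CPM, n = 3, log2 fold change 0.27), the decoy-like receptor FGFRL1 (0.28) and FGFR1 (0.13, edgeR adjusted p 0.00308). FGFR1 had been lower in the knockout library on day 0, at 89.9 FPKM against 162 FPKM, as had FGFR3 (5.16 against 11.7 FPKM). These 2 of 5 receptors were past 1.5-fold downwards and none upwards, where 8.77% and 4.81% of all kept genes were.

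Of 19 genes of the RAS/ERK cascade 2 rose on day 2 and none fell (median log2 fold change −0.04), also with DESeq2 and limma-voom, and the share that rose is near the 12.3% of all tested genes. Against a 1.2-fold change (glmTreat) 0 passed, and 0 were at an unadjusted p under 0.05. At an unadjusted p under 0.05 in edgeR 4 were lower, and 1 was called lower without wild-type replicate 1 or knockout replicate 3. The 2 that rose were the adapter SHC1 (0.23, edgeR adjusted p 6.71e-06) and MAP2K1, which encodes the MEK kinase MEK1 (0.17, edgeR adjusted p 0.00112). MAP2K2, the gene of the MEK kinase MEK2, went the other way and was among the 4 lower genes. Its mean was 138 CPM in wild type and 128 CPM in the knockout, with overlapping libraries (−0.10, edgeR adjusted p 0.0665). MEK transcripts as a whole were not tested, so the rise is that of MAP2K1 alone. On day 0 none of the 19 was past 1.5-fold. The largest ratios were those of HRAS (7.44 FPKM in wild type, 11.5 FPKM in the knockout) and the ERK gene MAPK3 (19.9 and 16.0 FPKM).

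Of 14 other inhibitors tested 2 rose and 1 fell, near the 12.3% and 11.0% of all tested genes, and 0 passed against a 1.2-fold change (glmTreat, 0 also at an unadjusted p under 0.05). On day 0, 2 of 16 were past 1.5-fold upwards and 1 downwards. IL17RD, a membrane inhibitor of FGF receptor signalling also known as SEF, rose from 366 ± 2.24 to 422 ± 16.9 CPM (n = 3, log2 fold change 0.21, edgeR adjusted p 9.57e-06). It was higher in the knockout library on day 0 too, at 20.6 against 6.58 FPKM, and so was ERRFI1, an inhibitor of EGF receptors (32.1 against 15.2 FPKM). DUSP10, a dual-specificity phosphatase gene whose action on ERK was not tested, rose (0.27). PEBP1, a RAF inhibitor, fell (−0.15, edgeR adjusted p 0.00392). Without wild-type replicate 1 PEBP1 had an edgeR adjusted p of 0.0593, the highest of the settings that leave out 1 library.

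Of 11 other ERK-responsive genes 6 rose on day 2 and none fell, also with DESeq2 and limma-voom (0 lower at an unadjusted p under 0.05 in edgeR), beside 12.3% and 11.0% of all tested genes. Against a 1.2-fold change (glmTreat) 3 passed, all higher. Their median log2 fold change was 0.30 beside −0.0026 for all tested genes, and whether they differ from the feedback genes was not tested. FLRT3, a membrane protein of the FGF8 synexpression group, rose from 42.9 ± 2.95 to 61.7 ± 1.29 CPM (n = 3, 0.53, edgeR adjusted p 3.78e-09). The immediate early factors FOS (28.4 ± 2.13 to 40.2 ± 3.36 CPM, 0.50) and EGR1 (0.44) and the cyclin gene CCND1 (0.18) rose as well. FLRT3 and FOS were among the 3 past the 1.2-fold test, and EGR1 was not (glmTreat adjusted p 0.107). PLAUR had the largest fold change of the list, from 4.82 ± 0.0901 to 7.68 ± 0.533 CPM (n = 3, 0.67, edgeR adjusted p 0.000191). The day 0 libraries had 1 of 12 genes of this list past 1.5-fold upwards (ETV1) and 4 downwards (FOS, EGR1, MYC and PHLDA1), beside 4.81% and 8.77% of all kept genes. FOS was at 14.3 FPKM in wild type and 5.45 in the knockout, EGR1 at 21.5 and 9.22 FPKM, and MYC, the lowest ratio, at 15.0 and 2.45 FPKM. Other immediate early genes were higher in the knockout library by less than 1.5-fold: IER2 was at 29.2 and 36.7 FPKM, IER3 at 0.963 and 1.21 FPKM, and FOSL1 at 3.37 and 3.81 FPKM. The list thus went both ways on day 0, with 6 of 12 ratios above 0 (median log2 ratio 0.02).

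Genes of heparan sulfate and its carrier proteins rose in 9 of 18 cases on day 2 and fell in none, beside 12.3% and 11.0% of all tested genes (median log2 fold change 0.17). The glypican genes GPC2 (31.0 ± 1.60 to 45.3 ± 2.02 CPM, n = 3, 0.55, edgeR adjusted p 1.07e-08) and GPC4 (176 ± 3.57 to 215 ± 4.73 CPM, 0.29), the syndecan gene SDC1 (0.33) and the sulfatase gene SULF2 (0.22) were those with the smallest p. Leaving out 1 library gave 7 to 9 higher, and the test against a 1.2-fold change (glmTreat) gave 1, GPC2. In edgeR 1 gene was lower at an unadjusted p under 0.05, and 1 was called lower without knockout replicate 1. On day 0, 1 of the 18 was past 1.5-fold upwards (SDC2) and 3 downwards (GPC1, NDST2 and HS6ST2), beside 4.81% and 8.77% of all kept genes. Exons of CCND1, ERRFI1, FGFR1, IER2, IER3, MAP2K1, NDST2, NUP153, PEBP1, PHLDA1, SHC1 and SULF2 overlap at least 1 other annotated gene. The overlap runs from 2.12% of exon length (FGFR1) to 82.9% (NDST2), with 30.8% for IER2 and 26.5% for IER3. Their values are uncertain, as are those of DUSP6.

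**Figure D4:**
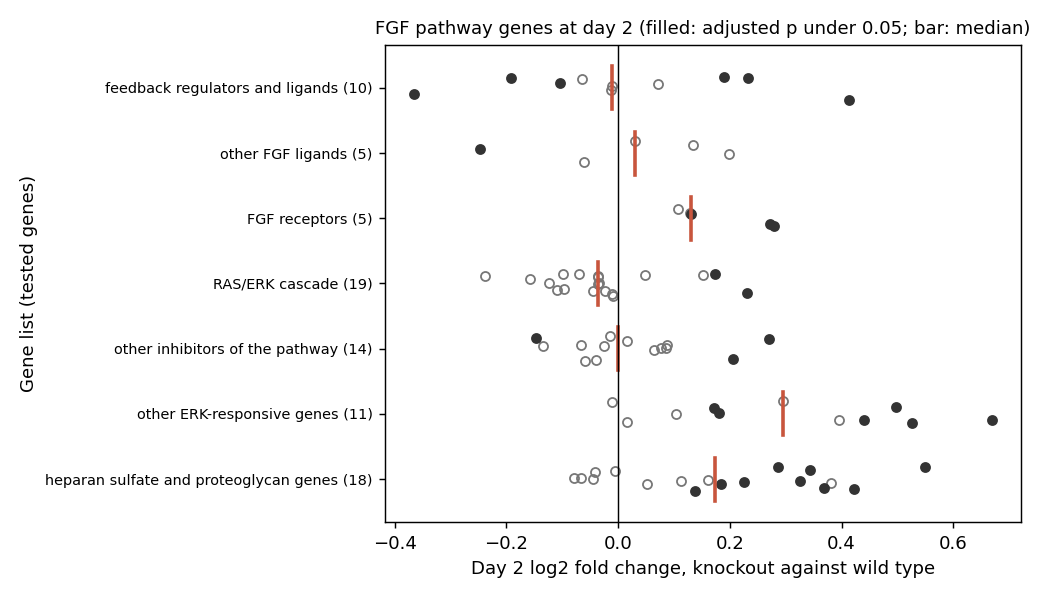
Day 2 edgeR log2 fold change (x axis) of every tested gene of the FGF pathway lists (rows, number tested in brackets), filled where the adjusted p was under 0.05, with a bar at each list's median. The row of other FGF ligands holds genes listed by family name and not by action on FGF receptors. The feedback regulators and ligands lie on both sides of 0 (median −0.01), while 6 of 11 other ERK-responsive genes and 9 of 18 heparan sulfate and proteoglycan genes are filled and above 0.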

How the data were processed

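Per the file headers, the authors deposited counts per gene for 6 day 2 libraries and FPKM for 2 day 0 libraries. The submitters' processing notes name HISAT2, StringTie and the build GRCh38 (hg38). How reads were counted, with what strand setting and annotation, is not given in the sources used here. Each day was compared within its own table. Day 2 counts (27880068 to 39553614 per library) were filtered with filterByExpr, scaled by TMM and fitted with edgeR 4.0.16 in R 4.3.3 (robust quasi-likelihood test, 2-sided, a genotype term alone, p adjusted by Benjamini-Hochberg over 11475 genes, threshold 0.05). Day 0 ratios used FPKM + 1 where either library reached 1 FPKM, with no test. Positions, exon lengths and overlaps came from GENCODE release 29 (GRCh38), which matched 98.8% of day 2 symbols, and promoter windows from RefSeq (GRCh38.p14).

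The 10 genes and the pathway lists were chosen with earlier results of these data known. Named were the 10 genes, SETD7, up to 4 called genes per list with the smallest day 2 p, up to 2 per list with the largest day 0 ratio, and the 5 genes most correlated with the member of smallest p. Some other list genes are named beside these where a count or a direction rests on them. Alternatives were other scalings, filters and tests (DESeq2 1.42.0, limma-voom 3.58.1, glmTreat against 1.2-fold), the replicate block, leaving out each library, other day 0 pseudocounts and filters, and transcript length. On simulated day 2 counts of 11470 genes, 81% of 100 genes changed 1.3-fold and 97% of 100 changed 2-fold were recovered, and 5.82% of calls were false. No other genes were changed in the simulation, while 23.3% of tested genes passed in the data. Of the called feedback genes DUSP4 alone (1.33-fold) changed by more than 1.3-fold. The simulated rates therefore do not describe the calls reported here. No 2 libraries agreed within sampling noise (chi-square per degree of freedom of 3.04 or more).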

Additional observations from a re-analysis of the deposited data

Results flagged for a closer look

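In 12 genes the day 2 libraries of the knockout all lay on one side of the wild type while the single day 0 knockout library lay on the other side of its wild type. The search covered the feedback genes and the list genes picked by small day 2 p or large day 0 ratio. On day 2 the genotypes did not overlap in 37.7% of all tested genes. How many of all genes went opposite ways between the days was not counted, so the 12 are not read as an excess. The difference between the days was not tested, since day 0 has 1 library per genotype and another unit. Among the feedback genes, the day 0 log2 ratio (FPKM + 1) and the day 2 edgeR log2 fold change were 1.39 and −0.10 for DUSP5, 1.04 and −0.07 for ETV4 (not past the threshold on day 2, edgeR adjusted p 0.281), 0.16 and −0.19 for ETV5, and −0.30 and 0.41 for DUSP4. Among the other pathway genes, the same pair of values was −0.84 and 0.13 for FGFR1, −0.36 and 0.28 for FGFRL1, −0.68 and 0.27 for DUSP10, and 0.28 and −0.15 for PEBP1. It was −1.25 and 0.50 for FOS, −1.14 and 0.44 for EGR1, −0.49 and 0.55 for GPC2, and −0.20 and 0.22 for SULF2.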

How the results depend on the processing

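The count of 6 feedback genes past the threshold on day 2 was also 6 with both other scalings, both other filters, DESeq2, limma-voom and the replicate block. Same-numbered libraries showed no sign of pairing (correlations of their deviations −0.09, −0.07 and −0.02, and no library correlated best with its own number). These 3 values do not settle whether same-numbered libraries shared a culture or day. With the block 2210 genes passed in place of 2668. Leaving out 1 library gave 3 to 6 feedback genes, 2 to 3 of them higher and 1 to 3 lower, with 2005 to 2509 genes in all. The range of log2 fold changes was then 0.17 to 0.31 for SPRY1, −0.12 to −0.094 for DUSP5, 0.16 to 0.21 for DUSP6, −0.22 to −0.15 for ETV5, −0.047 to 0.0091 for SPRY2 and −0.035 to 0.0090 for SPRY4. DUSP4 and FGF17 passed in each of these fits. Upper-quartile scaling gave 0.0030 for SPRY2 and 0.0043 for SPRY4. Tested against a 1.2-fold change, a stricter null, 246 genes passed, among them 3 other ERK-responsive genes, 1 heparan sulfate gene and 0 of the other pathway lists, and 0 feedback genes, 0 higher and 0 lower, with unchanged fold changes of 0.23 (SPRY1), 0.41 (DUSP4), −0.10 (DUSP5), 0.19 (DUSP6), −0.19 (ETV5) and −0.37 (FGF17), and glmTreat adjusted p values of 0.0774 for DUSP4 and 0.198 for FGF17. A day 0 pseudocount of 5 FPKM, which shrinks ratios by construction, gave 0.30 (SPRY1), 0.66 (SPRY2), 0.95 (SPRY4), −0.13 (DUSP4), 0.97 (DUSP5) and 0.81 (DUSP6), and one of 0.1 FPKM gave −0.45 (DUSP4) and 1.55 (DUSP5). FGF2, the gene past 1.5-fold downwards on day 0, was not past it with the pseudocount of 5 FPKM or with centred ratios, leaving 0. Per kilobase of the longest transcript, the wild-type day 2 levels were 88.6 (DUSP5), 59.6 (SPRY4), 35.5 (ETV4), 23.6 (SPRY2), 22.5 (FGF17), 16.6 (SPRY1), 9.77 (DUSP6), 9.20 (ETV5) and 6.29 (DUSP4) CPM per kb, which places ETV5 above FGF2 (7.42 under both lengths). Day 0 depth is unknown and 1 library per genotype sets no error there.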
